A study of Mus musculus with 32 samples.

Results

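Genes taken by name as encoding proteins the liver secretes into blood plasma were examined in livers and small intestines of mice that lack ketohexokinase. The rule takes genes by name and uses no measured value, although it was set with earlier results of these data known. It covers protein-coding apolipoprotein genes (Apoa, Apob, Apoc, Apoe, Apof, Apoh, Apom and Apoo) and serpins of clades a, c, d, f and g. It also covers fibrinogen chains, coagulation factors, complement components, serum amyloid A genes (Saa) and orosomucoid genes (Orm). The rest are inter-alpha-trypsin inhibitor heavy chain genes (Itih) and major urinary protein genes (Mup), with Alb, Ttr, Ahsg and Plg. The name rule matched 100 protein-coding genes of the mouse annotation, of which 55 had a row in at least 1 of the 4 organ tables, among 10055 genes with a row in any table. Of these, 51 were listed among the 6375 genes for liver, 8 among 1567 for duodenum, 6 among 2413 for jejunum and 10 among 5187 for ileum. A table listed a gene only where the authors' own test gave it an unadjusted p under 0.05, so a gene in a table had already been selected on the contrast described here, and counts over the listed genes describe them without supporting a direction. The other 45 genes of the rule, among them Alb, Ahsg, Plg, Fga and most Mup genes, were not analysed here. Apoo is a gene of the rule by its symbol, although its product is now known as a mitochondrial protein. A matching name does not show that the liver secretes the product of every gene called a plasma protein gene here.

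Male mice deficient in Khk (Khk KO) and male wild-type (WT) mice were compared, with 4 mice per group according to the series' design, in liver and in duodenum, jejunum and ileum. Khk encodes ketohexokinase, the enzyme that phosphorylates fructose, and the series asked how fructose and this enzyme bear on iron homeostasis. Polyadenylated RNA was sequenced in bulk. Strain, age, diet, the kind of deletion, and whether the same mice gave all 4 organs are not given in the sources used here, and the labels name no other allele or treatment. Summed over the listed genes, a liver library held between 7505439 and 14331517 reads, a duodenum library between 1722220 and 3549978, a jejunum library between 3053896 and 4325568, and an ileum library between 6531593 and 9149003. As a check of the labels, mean normalised counts of Khk in Khk KO as a share of WT were 11.1% for liver, 4.59% for duodenum, 9.25% for jejunum and 6.65% for ileum, with no overlap between genotypes in any organ.

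Hepatocytes supply most plasma proteins: carriers of hormones and vitamins, the apolipoproteins that package lipid into lipoproteins, the fibrinogen chains and proteases of clotting, the serpins that inhibit those and other proteases, and complement. Saa and Orm genes are acute phase genes, which hepatocytes transcribe strongly during inflammation, and Mup genes encode pheromone carriers that mouse liver secretes for excretion in urine. Enterocytes of the small intestine also make apolipoproteins for chylomicrons, chiefly ApoB, ApoA-I and ApoA-IV. Binding of HNF1 and C/EBP family factors near the transcription start is a textbook feature of many hepatic secretory genes.

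Promoter sequence from RefSeq (GRCm38.p6, 250 bases before to 50 bases after each start) was matched by symbol for 45 of the 55 genes. The HNF1 core GTTAAT was found on either strand in 11 of these 45 genes (24.4%) and in 8.24% of all 27025 genes with a promoter in that set. All 5 Serpina1 genes, which encode the alpha-1-antitrypsin copies, held it. The last 60 bases before the start are shown for 4 of them because their promoters are near copies, so the 4 matches are not independent. Capitals mark the HNF1 core. The stretches lie on the minus strand at chr12:103863620-103863679, chr12:103738190-103738249, chr12:103904951-103905010 and chr12:103773634-103773693.
Serpina1a: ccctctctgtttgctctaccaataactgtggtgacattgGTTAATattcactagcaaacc
Serpina1b: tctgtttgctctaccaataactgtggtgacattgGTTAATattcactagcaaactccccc
Serpina1c: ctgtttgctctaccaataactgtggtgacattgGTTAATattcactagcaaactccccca
Serpina1d: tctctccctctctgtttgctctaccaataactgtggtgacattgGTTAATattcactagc
In these 4 copies the HNF1 core begins 16 to 27 bases before the annotated start, and in Serpina1e, which is not shown, 78 bases before it.

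A loose C/EBP core, TTNCNCAA, was found on either strand in 13 of the 45 genes (28.9%) and in 14.9% of all genes. The strict C/EBP core TTGCGCAA, which the loose form includes, was found in Orm2 alone, against 0.207% of all genes. The beta chain gene of fibrinogen, Fgb, held both a loose C/EBP core and an HNF1 core in the 150 bases before its start, on the minus strand at chr3:83049864-83050013. C8a, a complement gene, held an HNF1 core in the equivalent stretch, on the minus strand at chr4:104876399-104876548. Both are shown with these matches in capitals as examples of promoters outside the serpin family. Neither gene passed in the liver refit, with log2 fold changes of -0.37 (adjusted p = 0.0574) for Fgb and 0.37 (adjusted p = 0.0602) for C8a.
Fgb: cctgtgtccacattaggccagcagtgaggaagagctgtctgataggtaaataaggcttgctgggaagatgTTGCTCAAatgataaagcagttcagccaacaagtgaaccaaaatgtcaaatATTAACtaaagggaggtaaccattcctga
C8a: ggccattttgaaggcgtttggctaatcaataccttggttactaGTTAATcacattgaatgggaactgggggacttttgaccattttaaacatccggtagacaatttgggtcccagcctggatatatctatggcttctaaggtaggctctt
Among the 22 genes called lower in liver that have a promoter sequence, 5 held the HNF1 core (22.7%) and 5 the loose C/EBP core (22.7%). A match gives the letters only and names neither a bound site nor a cause.

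Saa1 and Saa2, the acute phase genes with the lowest Khk KO levels relative to WT, have nearly the same promoter, with 97.4% of aligned positions identical over the 150 bases before the start. A loose C/EBP core on the sense strand stands in Saa1 but not in the matching place of Saa2. The 30 bases around it are shown, for Saa1 on the minus strand at chr7:46743048-46743077 and for Saa2 on the plus strand at chr7:46751735-46751764.
Saa1: ttgtctggagtTTTCCCAAgggtggtgcca
Saa2: ttgtctggagtattaccaagggtggtgcca
Counted from the 5′ end of the printed stretch, the differences were T12A and C15A, with the Saa1 base first. Both genes held another loose C/EBP core further upstream, starting 182 bases before the start of Saa1 and 183 before that of Saa2. TATAAA was found in 11 of the 45 genes (24.4%) and 15.7% of all genes, the FOXA core TGTTTAC in 3 (6.67%) and 4.05%, the STAT3 core TTCCNGGAA in 1 (2.22%) and 1.35%, and the HNF4 core CAAAGTCCA in 0 and 0.555%.

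In Khk KO liver most of the plasma protein genes that the table lists were lower than in WT, and a few of the longest were higher. Fitted again from the deposited counts with edgeR, 49 of the 51 genes passed the filter on low counts, and 30 were called lower and 2 higher at an adjusted p under 0.05. Of all 6375 genes in the liver table the same fit called 21.4% lower and 20.5% higher. By the authors' deposited table, 39 of the 51 genes were lower and 4 higher, against 32.6% and 35.8% of the table, and all 32 genes called in the refit were among these. The median log2 fold change, Khk KO over WT, was -0.52 over the plasma protein genes and 0.33 over all genes tested. All 4 Khk KO libraries lay below all 4 WT libraries in 32 of the 51 genes, against 30.7% of the table, and above them in 3 genes, against 34.3%. With the trend of fold change with gene length taken out, in either of the 2 versions given further on, most of these calls ended: 5 and 4 of the 30 genes stayed called lower, and 1 and 0 of the 2 higher. Of the 30, 9 turned sign in both versions (Apoa2, Apof, F12, Mup20, Serpina1a, Serpina1c, Serpina1e, Serpinf1 and Ttr), 3 in the first alone and 1 in the second alone. In bulk tissue, fewer cells of a type and less RNA per cell cannot be told apart.

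**Figure D1:**
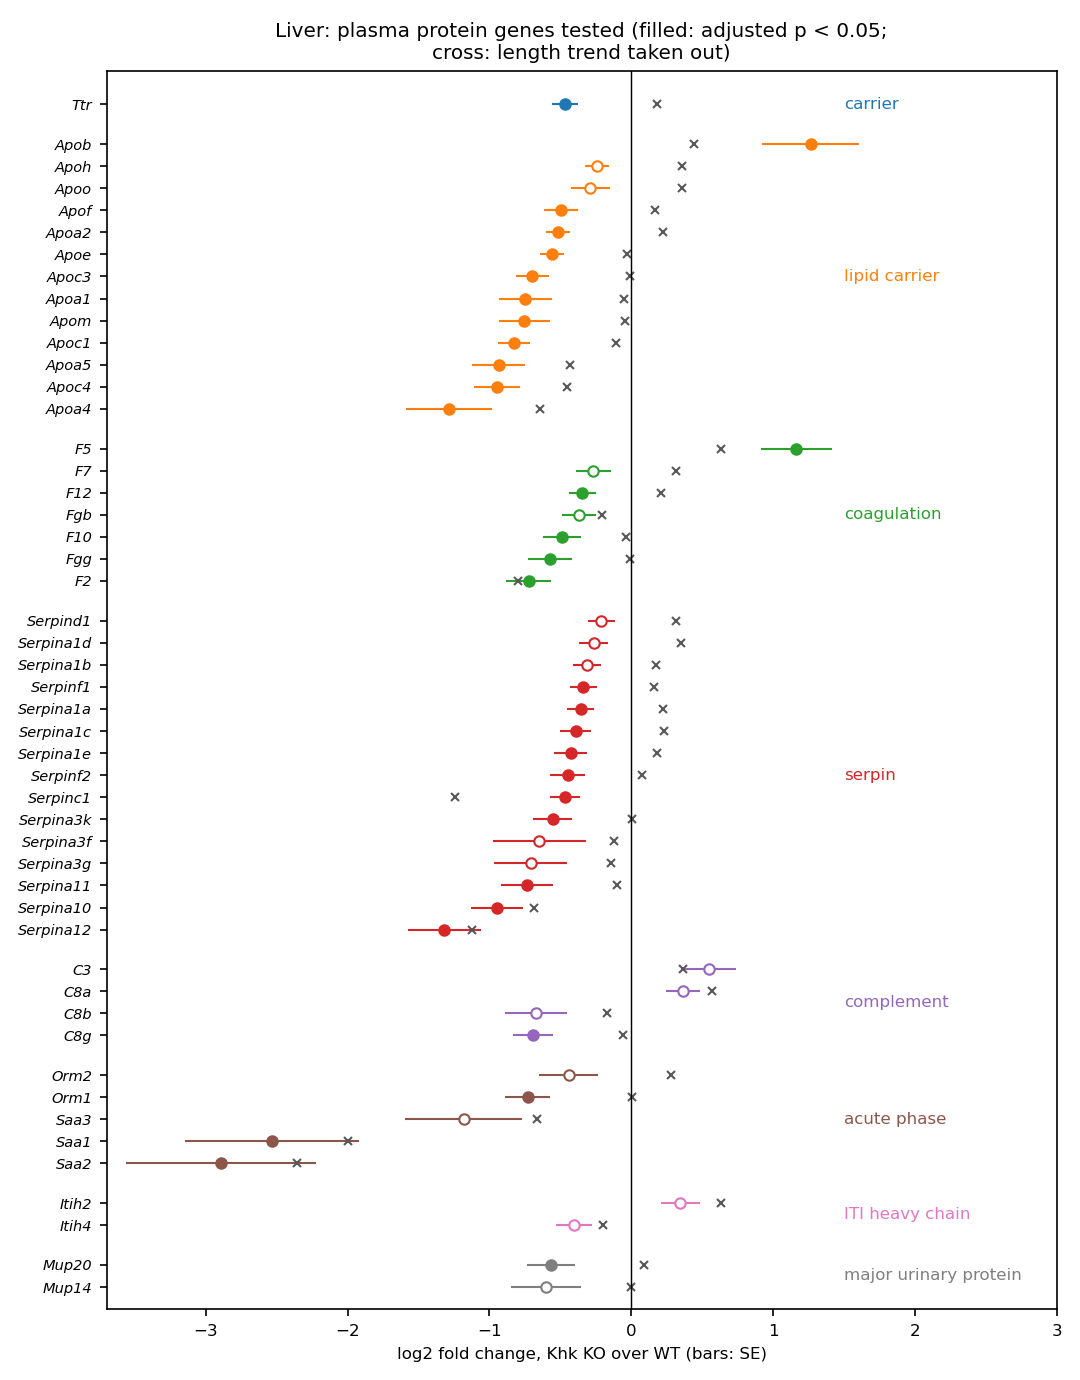
Khk KO over WT in liver as log2 fold change for the 49 plasma protein genes tested, grouped by role, with SE bars. Filled circles have an adjusted p under 0.05 and open circles do not, and crosses give the fold change after the trend with gene length was taken out. Apob and F5 are the filled points to the right of 0, and most crosses lie nearer to 0 than their circles.

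Transthyretin (Ttr), which carries thyroid hormone and the retinol-binding protein, had 75674, 73322, 75127 and 72243 normalised counts in Khk KO replicates 1 to 4 and 94455, 117500, 105665 and 99757 in WT replicates 1 to 4. Every Khk KO library was below every WT library. Ttr fell by 0.47 on the log2 scale (SE 0.089, adjusted p = 0.0183), to 71.0% of the WT mean. Under the 2 length corrections its sign turned, at 0.18 (adjusted p = 0.707) and 0.14 (adjusted p = 1).

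Of 13 lipid carrier genes tested in liver, 10 fell and Apob rose, against 21.4% lower and 20.5% higher over the table. Apoh and Apoo did not pass. Apoe, ligand of the LDL receptor family, had the highest WT level of all 51 genes per length, at 16371 ± 1087 FPKM (SD, n = 4). Its normalised counts were 268654, 260808, 300079 and 252917 in Khk KO and 374269, 414801, 417596 and 420320 in WT. The genotypes did not overlap, and Apoe fell by 0.56 on the log2 scale (SE 0.083, adjusted p = 0.0137). Under the 2 length corrections Apoe was at -0.031 and -0.0034. Apoc1, a small inhibitor of lipoprotein uptake and exchange, had 27372, 25272, 31665 and 24286 normalised counts in Khk KO and 43412, 50469, 55534 and 47126 in WT. Khk KO was again below WT in every library, and Apoc1, singled out after its values were seen, fell by 0.83 (SE 0.11, adjusted p = 0.0107). Under the same corrections Apoc1 was at -0.11 and -0.071.

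The genes of the cluster on chromosome 9, Apoa5, Apoa4, Apoc3 and Apoa1, were all called lower in liver. Apoa4, the apolipoprotein of chylomicrons, had 334, 439, 451 and 463 normalised counts in Khk KO and 611, 722, 1875 and 1006 in WT, a fall of 1.29 on the log2 scale (SE 0.30, adjusted p = 0.0246). Apoa5, a promoter of triglyceride breakdown in plasma, had 14037, 14042, 13447 and 13494 in Khk KO and 18033, 27207, 38888 and 23510 in WT, a fall of 0.94 (SE 0.19, adjusted p = 0.0189). In both genes the 4 Khk KO libraries were close together and below every WT library, of which WT replicate 1 was the lowest. Antisense gene models of the annotation overlap 34.9% of the exon bases of Apoa4 and 20.8% of those of Apoa5, and without a known strand their reads cannot be told apart.

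Apoc3, an inhibitor of lipoprotein lipase, had 17384, 17053, 19543 and 17427 normalised counts in Khk KO liver and 25898, 29955, 36162 and 26290 in WT, with no overlap and a fall of 0.70 (SE 0.12, adjusted p = 0.0167) that became -0.0093 and 0.067 under the 2 length corrections. Apoa1, the main protein of high-density lipoprotein, had 104146, 102999, 95633 and 108870 in Khk KO and 105707, 176205, 244712 and 179657 in WT. WT replicate 1 lay inside the Khk KO range of Apoa1, and the other WT libraries lay well above it. The fall of Apoa1 was 0.75 (SE 0.19, adjusted p = 0.029). Apoc4, at the Apoe locus on chromosome 7, fell by 0.95 (SE 0.16, adjusted p = 0.0175), to 50.8% of WT.

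Apob, the structural protein of very-low-density lipoprotein and chylomicrons, went the other way. It had 129465, 143863, 137561 and 129000 normalised counts in Khk KO and 108637, 44854, 27150 and 46479 in WT. Every Khk KO library was above every WT library, but WT replicate 1 stood far above the other WT libraries. Apob rose by 1.27 on the log2 scale (SE 0.34, adjusted p = 0.0342). Its gene length of 13934 bases in the authors' table is the greatest of the 51 genes.

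**Figure D2:**
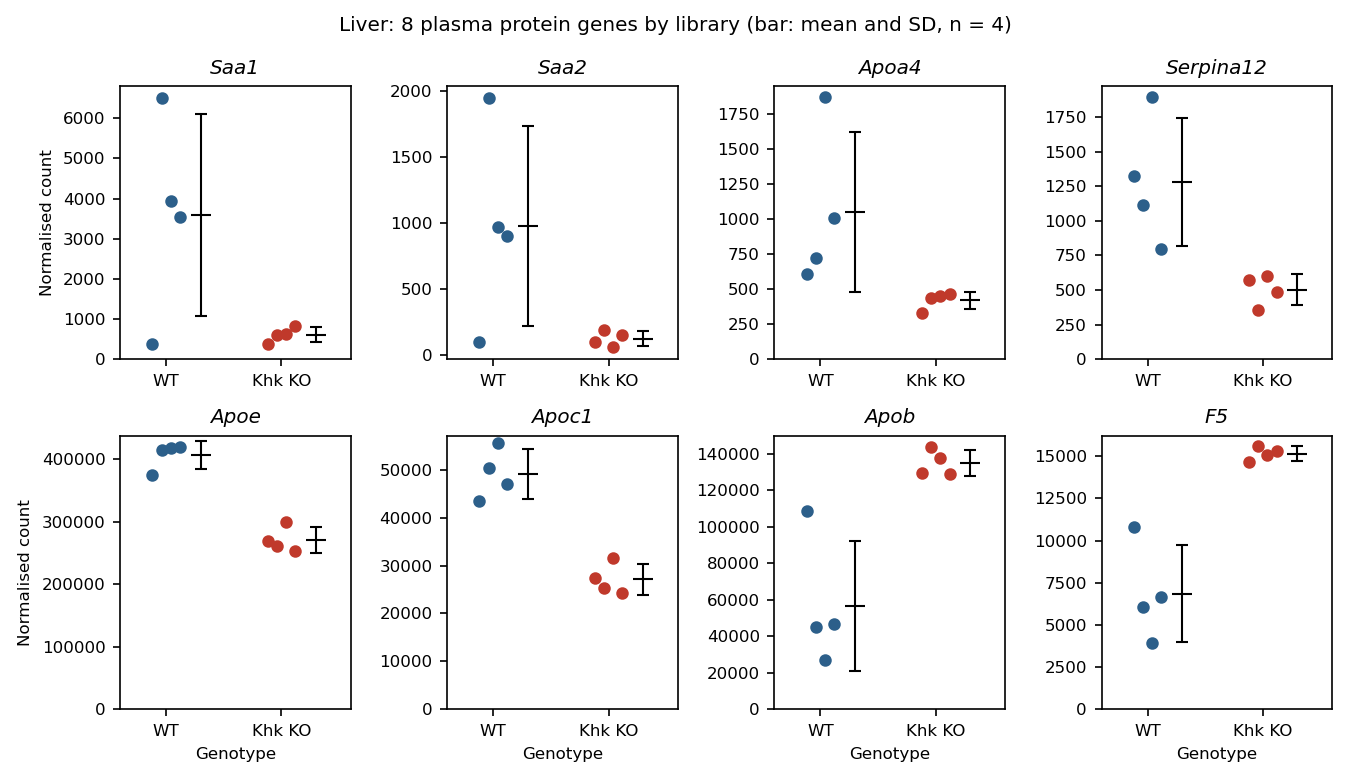
Normalised counts of 8 plasma protein genes in each liver library, WT in blue and Khk KO in red, with the mean and SD of 4 libraries beside them. WT replicate 1, drawn leftmost among the WT points, lies with Khk KO in Saa1 and Saa2 and nearest to Khk KO in Apob and F5.

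Of 7 coagulation genes tested in liver, 4 fell and F5 rose, against 21.4% lower and 20.5% higher over the table. F7 and Fgb did not pass. F5, the cofactor of the prothrombin-cleaving complex, had 14634, 15629, 15060 and 15320 normalised counts in Khk KO and 10826, 6043, 3912 and 6632 in WT. Khk KO libraries were tightly grouped and all above WT, and F5 rose by 1.16 (SE 0.25, adjusted p = 0.0208). Prothrombin, encoded by F2, had 25483, 25322, 27031 and 25247 in Khk KO and 32393, 41462, 60546 and 39744 in WT. The genotypes did not overlap, and F2 fell by 0.72 (SE 0.16, adjusted p = 0.0207). The gamma chain of fibrinogen, Fgg, fell by 0.58 (SE 0.15, adjusted p = 0.0345) and F10, the protease that cleaves prothrombin, by 0.49 (SE 0.14, adjusted p = 0.0368). Under the 2 length corrections Fgg was at -0.012 and -0.065 and F10 at -0.040 and -0.30, with neither called. F2 was at -0.80 and -0.31 and F5 at 0.63 and 0.34, both called in the first version alone. Fgb, also without overlap between genotypes, had a log2 fold change of -0.37 (SE 0.12, adjusted p = 0.0574).

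Of 15 serpin genes tested in liver, 10 fell and none rose, against 21.4% lower and 20.5% higher over the table. At an unadjusted p under 0.05, which the authors' test had already required for listing, the count was 13. limma-voom called 11 lower and DESeq2 10. Serpina12, which encodes the adipokine vaspin, had 573, 354, 599 and 488 normalised counts in Khk KO and 1321, 1118, 1898 and 793 in WT. No library of Khk KO reached the lowest WT library, and Serpina12 fell by 1.32 (SE 0.26, adjusted p = 0.0187). Serpina10, an inhibitor of activated factor X, had 2160, 2519, 2618 and 2345 in Khk KO and 3711, 4195, 6946 and 4136 in WT, a fall of 0.95 (SE 0.18, adjusted p = 0.0187). Serpinc1, which encodes antithrombin and was singled out after its values were seen, had 27628, 28762, 28474 and 29530 in Khk KO and 33003, 41712, 47413 and 39324 in WT, a fall of 0.47 (SE 0.11, adjusted p = 0.023). These 3 serpins did not overlap between genotypes, and they are the only plasma protein genes called in liver under both versions of the length correction described further on. For Serpinc1, 34.4% of its exon bases are shared with Zbtb37 on the opposite strand.

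Serpina1 and Serpina3 are families of related gene copies, and how the authors' counting treated reads that fit several copies is not given in the sources used here, so single copies are uncertain. Summed over the 5 Serpina1 copies, Khk KO libraries held 255698 to 292862 normalised counts and WT libraries 322606 to 394027, a fall of 0.37 (SE 0.083, adjusted p = 0.0223) with no overlap. Taken singly, each of the 5 copies was above 0 under both length corrections, at 0.18 to 0.35 and at 0.098 to 0.28. Summed over 4 Serpina3 copies, which are mainly Serpina3k, the range was 165615 to 189783 in Khk KO and 208462 to 348892 in WT, a fall of 0.56 (SE 0.14, adjusted p = 0.0266). The families thus moved less than Serpina12 and Serpina10 on the log2 scale, a difference that was not tested.

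The acute phase genes held the greatest falls. Saa1 had 369, 600, 632 and 826 normalised counts in Khk KO and 375, 6496, 3934 and 3547 in WT. Saa2 had 102, 191, 65.4 and 154 in Khk KO and 99.6, 1942, 967 and 902 in WT. In both genes WT replicate 1 was at the level of Khk KO, and the other 3 WT libraries were several times higher, so the genotypes overlapped through that library. Saa1 fell by 2.53 (SE 0.61, adjusted p = 0.026) and Saa2 by 2.89 (SE 0.67, adjusted p = 0.0233). Saa3, mainly known as a product of macrophages and other cells outside hepatocytes, did not pass in the refit, with a log2 fold change of -1.18 (SE 0.41, adjusted p = 0.0766). Reads of Saa1 and Saa2 can be exchanged between the copies, and summed with Saa3 they fell by 2.50 (SE 0.58, adjusted p = 0.0236). Orm1, the main orosomucoid gene in liver, had 7865, 7588, 9584 and 7107 in Khk KO and 10792, 13977, 17832 and 11815 in WT, a fall of 0.73 (SE 0.16, adjusted p = 0.021) with no overlap, which became 0.0049 and -0.013 under the 2 length corrections.

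Of the 4 complement genes tested, C8g fell, against 21.4% lower and 20.5% higher over the table. The other 3 did not pass in the refit. C8g, C8a and C8b encode the 3 chains of component C8 of the membrane attack complex. Mean levels of C8g and C8b were lower in Khk KO and that of C8a higher, and differences between them were not tested. C8g had 3846, 3779, 4480 and 3732 normalised counts in Khk KO and 5379, 6927, 8137 and 5663 in WT, a fall of 0.69 (SE 0.14, adjusted p = 0.0196). C8b had a log2 fold change of -0.67 (SE 0.22, adjusted p = 0.0618) and C8a of 0.37 (SE 0.12, adjusted p = 0.0602), each with no overlap between genotypes and each past the threshold in the authors' deposited table. Under the 2 length corrections C8g was at -0.055 and -0.060, C8b at -0.17 and -0.35, and C8a at 0.57 and 0.11. C3, the central complement component, had 115672, 127697, 138134 and 124693 in Khk KO and 122815, 84472, 58043 and 85978 in WT. WT replicate 1 lay inside the Khk KO range of C3, whose log2 fold change was 0.55 (SE 0.19, adjusted p = 0.0775).

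The 2 Itih genes tested in liver, which encode heavy chains of the inter-alpha-trypsin inhibitor family, did not pass. Itih4 had a log2 fold change of -0.40 (SE 0.13, adjusted p = 0.0562) and Itih2 of 0.35 (SE 0.14, adjusted p = 0.116). Mup20, the male pheromone darcin, had 36266, 34773, 27422 and 47927 normalised counts in Khk KO and 68042, 52955, 49325 and 50244 in WT, with no overlap and a fall of 0.57 (SE 0.17, adjusted p = 0.0466) that turned to 0.087 and 0.052 under the 2 length corrections. Mup4 was uneven among WT mice: its read counts were 0 in all 4 Khk KO libraries and in WT replicates 1 and 4, and 402 and 244 in WT replicates 2 and 3. The authors' deposited table gives Mup4 a log2 fold change of -23.36, which reflects the zeros and is not a measured size, and the filter left it out of the refit. Only 3 of the 22 annotated Mup genes were listed, and reads can move between copies.

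The falls were not even across WT libraries. Relative to the WT mean, the median log2 level of the 49 genes tested was -0.52, -0.60, -0.48 and -0.53 in the Khk KO libraries and -0.22, 0.04, 0.24 and -0.05 in WT replicates 1 to 4. WT replicate 1 was the lowest WT library in 25 of the 30 genes called lower, and WT replicate 3 the highest in 22. In 5 of the 30, WT replicate 1 lay at or below the highest Khk KO library. Without WT replicate 1 the refit called 38 lower and 5 higher, against 38.5% and 37.8% of the table. Without WT replicate 3 it called 32 and 2, against 17.7% and 16.3%. Leaving out WT replicate 4 or Khk KO replicate 2 brought both counts to 0. In these fits 43 and 42 genes had an unadjusted p under 0.05. Listing had already required such a p of every gene, so these numbers give no support. The whole table then had 0.0314% called lower and 0.188% higher without WT replicate 4, and 0.0157% and 0.125% without Khk KO replicate 2. Without Khk KO replicate 1, 3 or 4 the fit called 1, 13 and 3 lower, against 0.235%, 7.12% and 0.769% of the table, and 0 higher, against 0.502%, 3.69% and 1.02%. Without WT replicate 2 it called 11 lower and 0 higher, against 5.25% and 3.11%. The count of plasma protein genes called lower moved the same way as the share of the whole table in 7 of these 8 fits, and without WT replicate 3 it rose slightly while that share fell. Among single genes, Apoc1 passed in 6 of these 8 fits and Apoa2 and Apoe in 5, which no other of the 49 genes reached. Under either length correction, neither Apoc1 nor Apoa2 nor Apoe was called. Without WT replicate 1, Saa1 was at -2.96 and Saa2 at -3.31. The number of calls thus changed with the library left out. The median log2 fold change of the genes stayed between -0.59 and -0.43 in these 8 fits. Each of these fits also had fewer libraries, and the part of that in the lost calls was not tested.

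**Figure D3:**
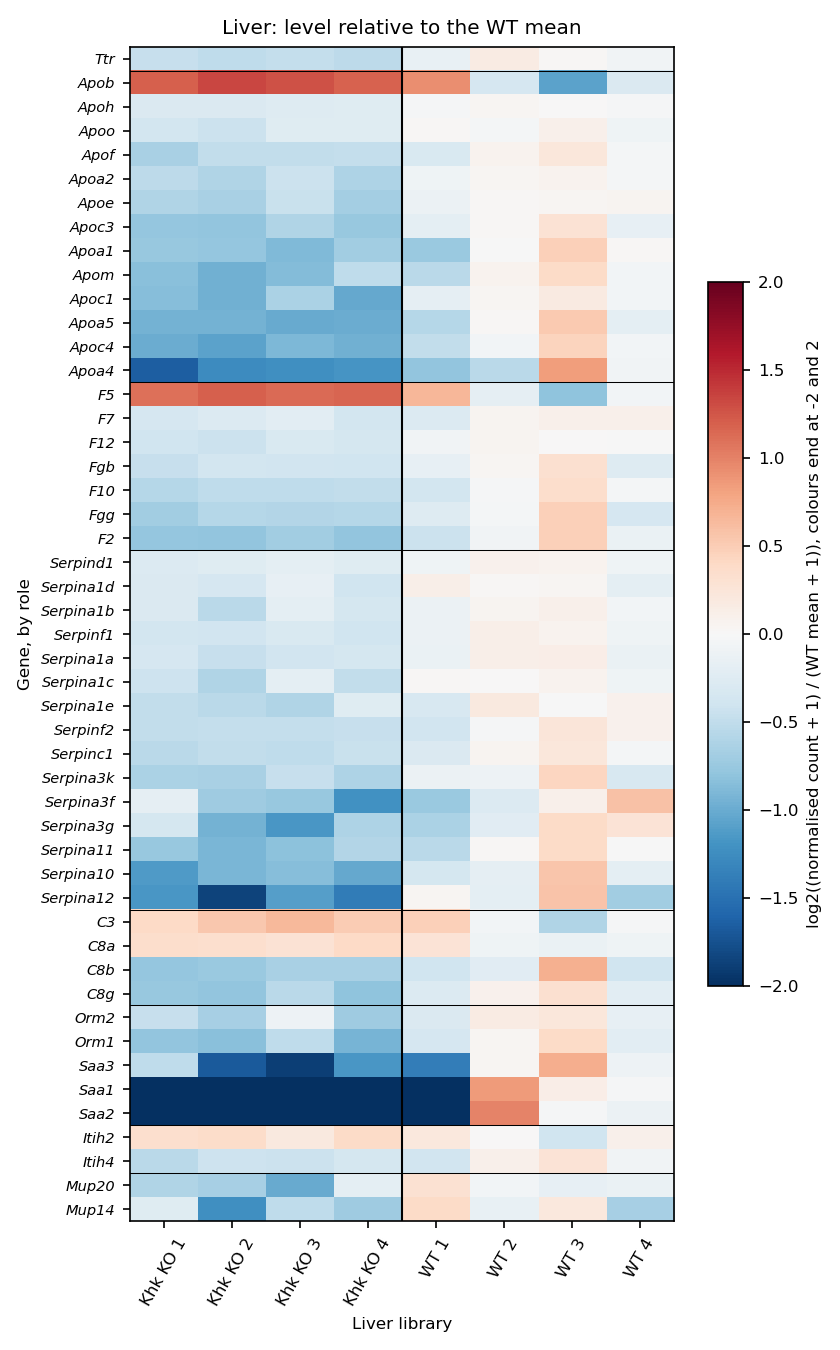
Level of each of the 49 plasma protein genes tested in each liver library, as log2 of normalised count plus 1 over the WT mean plus 1, with rows ordered by role and fold change. WT replicate 1 is paler than Khk KO in most rows and matches it in Saa1 and Saa2, and in Apob and F5 it is the WT library nearest to Khk KO.

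Fold change in the liver table followed gene length. Over 5685 listed genes outside the set, Spearman's rho between gene length and log2 fold change was 0.62 across genes, which share the 8 libraries and are not independent replicates. Over the 49 plasma protein genes tested it was 0.15. The 5 plasma protein genes longer than 4000 bases in the authors' table were Apob, Serpinc1, F5, C3 and F2, and their median log2 fold change was 0.55. The 22 genes of 2000 to 4000 bases had a median of -0.57, the 17 genes of 1000 to 2000 bases -0.47 and the 5 shorter genes -0.57. Serpinc1, with 8546 bases in the authors' table and 4970 in its principal transcript, fell although it is long. F2, with 4594 bases in the authors' table, also fell, but its principal transcript has 1988.

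**Figure D4:**
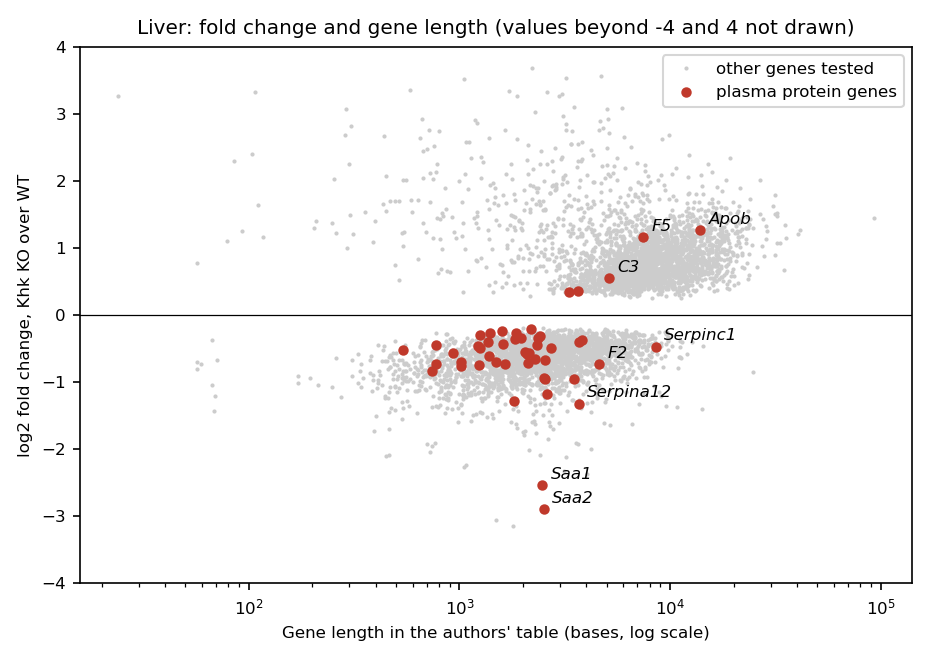
Log2 fold change in liver against gene length in the authors' table on a log scale, for the 49 plasma protein genes tested (red) and the other listed genes tested (grey). The empty band around 0 arises because genes with a larger p are not listed. Serpinc1 and F2 lie below 0 among genes that are long in the authors' table, and Saa1 and Saa2 lie below nearly all genes of their length there.

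When the trend with gene length was taken out of each library, 5 of the 49 genes were called lower (Apoc4, F2, Serpina10, Serpina12 and Serpinc1) and 3 higher (F5, C8a and Itih2), against 6.12% and 6.21% of the table. The median of the 49 genes became 0.00035, and that of all genes tested 0.00089. Some gene models are much longer than the main transcript: Apoc4 has 2537 bases in the authors' table and 538 in its principal transcript, and Saa1 has 2478 and 609. With principal transcript lengths, an alternative chosen after seeing the data, 6 genes were called lower (Serpina12, Serpina10, Serpinc1, Apoa5, Itih4 and Fgb) and 0 higher, against 4.74% and 5.8% of the table. In that fit 16 genes had an unadjusted p under 0.05 in either direction, and no other tool was run with it. Serpina12, Serpina10 and Serpinc1 were called in both versions, with log2 fold changes of -1.12 and -1.64 for Serpina12, -0.69 and -1.20 for Serpina10, and -1.24 and -1.13 for Serpinc1. Saa1 was at -1.99 (adjusted p = 0.0716) and -1.72 (adjusted p = 0.124), and Saa2 at -2.36 (adjusted p = 0.0531) and -2.08 (adjusted p = 0.0879). Apob was at 0.44 (adjusted p = 0.206) and 0.08 (adjusted p = 1). A fit of this kind also removes any genotype difference that follows length, and whether the trend is technical was not tested.

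Per length, the plasma protein genes held 22.05% ± 0.64 of the FPKM of the liver table in Khk KO and 23.12% ± 0.90 in WT (SD, n = 4). Their share of the read counts differed by -2.8 percentage points, Khk KO minus WT.

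Markers of other cell types moved in the liver table beside these genes. For the calls among markers given here, the shares of the whole liver table were 21.4% lower and 20.5% higher. All 5 listed erythroid markers of 6 were called lower in Khk KO, with summed normalised counts of 2967 to 3515 against 4584 to 10959 in WT. The 6 listed Kupffer cell markers of 10 summed to 3360 to 5086 in Khk KO and 4285 to 11846 in WT, with 4 called lower. The 4 listed endothelial markers of 7 summed to 4817 to 5046 in Khk KO and 2408 to 4029 in WT. Of these, Ptprb (1.18) and Stab2 (1.02) were called higher, and Clec4g, of the sinusoidal endothelium, was called lower (-0.60, adjusted p = 0.0248). Hepatocyte markers outside the set, 6 listed of 12, summed to 172141 to 231020 in Khk KO and 181254 to 238220 in WT, which overlapped. Within that sum 3 were called lower, Ass1 at -0.83, Asgr1 at -0.89 and Arg1 at -0.77, and the others did not pass, with Hpd at -0.37, Tat at 0.73 and Cps1 at 0.36. WT replicate 1 had the lowest erythroid and Kupffer sums and the highest endothelial sum among WT. Stellate markers, 4 listed of 8, summed to 1932 to 3364 in Khk KO and 2192 to 3130 in WT, with 1 called higher (Reln), leukocyte markers, 2 of 5, to 938 to 1178 and 1109 to 1814, with 0 called in the refit and in the authors' deposited table, and no cholangiocyte marker of 5 was listed. With the trend with gene length out, 6.12% of the whole table was called lower and 6.21% higher. Of the listed liver markers, Hbb-bt, an erythroid one, was then still called lower. Tat, a hepatocyte marker that had not passed before, was called higher (1.21, adjusted p = 0.0185), and no other marker was called. The part of these cells in the falls of the plasma protein genes was not tested.

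Among 54 other secreted plasma protein genes, 31 were listed in liver, of which 18 fell and 4 rose, and their median log2 fold change was -0.39 against 0.33 for all genes tested. For each of the 3 lists described here, the shares of the whole liver table were 21.4% lower and 20.5% higher. With the trend with gene length out those shares were 6.12% and 6.21%. Hpx, which binds haem, fell by 1.22 (SE 0.25, adjusted p = 0.0196), and Mug1, a protease inhibitor of the alpha-2-macroglobulin family, rose by 0.86 (SE 0.14, adjusted p = 0.0157). With the trend with gene length out, 2 of the 31 were called lower and 1 higher. Mug1 stayed called, at 0.52 (adjusted p = 0.0179), and Hpx did not, at -0.54 (adjusted p = 0.118). Among 31 genes of lipoprotein assembly, processing and uptake, 16 were listed, of which 6 fell and 4 rose. Abcg5 and Abcg8, which form the sterol exporter into bile, rose by 0.47 (SE 0.13, adjusted p = 0.0337) and 0.51 (SE 0.14, adjusted p = 0.0392). Pltp, the phospholipid transfer protein, fell by 1.09 (SE 0.26, adjusted p = 0.0242). With the trend with gene length out, 2 of the 16 were called lower and 2 higher, with Abcg5 at 0.90 and Abcg8 at 0.69 still called and Pltp at -0.65 (adjusted p = 0.285) not. Among 32 transcription factor and signalling genes of hepatic secretory expression, 11 were listed, of which 3 fell (Atf5, Esrra and Creb3l3) and Onecut2 rose. Creb3l3, a membrane-bound factor that activates apolipoprotein and acute phase genes, fell by 0.35 (SE 0.10, adjusted p = 0.0433), and was at 0.018 (adjusted p = 1) with the trend with gene length out. In that fit 2 of the 11 were called lower, Atf5 and Ghr, and 0 higher. Genes named from these 3 lists were singled out after their values were seen.

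In ileum, 10 of the plasma protein genes were listed and 9 tested, and the refit called Apoc3 and Apoa1 lower and Apob and Itih5 higher, against 19.6% and 23.2% of the table. The authors' deposited table called 3 lower, with Apoe, and 2 higher, against 21.2% and 27.1%. Scaled by the authors' size factors the refit called 2 lower and 1 higher. Genotypes did not overlap in 3 genes with Khk KO lower, against 29.9% of the table, and in 1 with Khk KO higher, against 36.9%. Apoc3 had 178, 168, 137 and 145 normalised counts in Khk KO and 689, 372, 400 and 281 in WT, with no overlap and a fall of 1.43 (SE 0.23, adjusted p = 0.00599). With the length trend out, where 4.7% of the table was called lower and 4.47% higher, it was the only one of the 9 genes called, at -0.83 (adjusted p = 0.0157) and, by principal transcript (3.34% and 3.68% of the table), -0.77 (adjusted p = 0.0206).

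Apoa1 in ileum had 27192, 20557, 26882 and 31854 normalised counts in Khk KO and 97947, 42132, 54247 and 32904 in WT. The genotypes did not overlap, with WT replicate 4 just above Khk KO, and Apoa1 fell by 1.06 (SE 0.27, adjusted p = 0.0291). Apob had 27996, 27722, 37180 and 36011 in Khk KO and 28888, 15749, 21384 and 17714 in WT, with WT replicate 1 inside the Khk KO range. It rose by 0.64 (SE 0.17, adjusted p = 0.0333), and was at -0.04 and -0.22 under the 2 length corrections. Itih5 had 1782, 1720, 1745 and 1821 in Khk KO and 1169, 1209, 1340 and 1175 in WT, with no overlap and a rise of 0.53 (SE 0.099, adjusted p = 0.00971) that became 0.07 (adjusted p = 1) with the length trend out.

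With each of the 8 ileum libraries left out in turn, Apoc3 and Itih5 passed in 8 fits, Apoa1 in 3 and Apob in 1, the fit without WT replicate 1. The other ileum genes did not pass in the refit. Apoe had 6677, 6539, 6019 and 5455 normalised counts in Khk KO and 6654, 12042, 8748 and 9894 in WT, which overlapped through WT replicate 1, with a log2 fold change of -0.60 (SE 0.19, adjusted p = 0.0587). Apoa4 was at -1.50 (SE 0.49, adjusted p = 0.0664), with WT libraries from 335 to 2179. C2, a complement protease, was at -0.48 (SE 0.19, adjusted p = 0.109), Apoo at -0.46 (SE 0.17, adjusted p = 0.0882) and Serpina1b at -0.75 (SE 0.30, adjusted p = 0.121). For C2, 42.8% of exon bases lie in another gene model on the same strand. Orm2 was below the filter, with read counts of 8, 8, 0 and 3 in Khk KO and 0, 0, 0 and 1 in WT.

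In jejunum, 6 of the plasma protein genes were listed and 4 tested, and the refit called 0, against 0.0414% of the table lower and 0% higher. All 4 tested had an unadjusted p under 0.05, which the authors' test had already required for listing. DESeq2 and limma-voom called 0, and the authors' deposited table called 0 against 0.912% lower and 2.2% higher. Apoa4 had 87469, 78553, 97104 and 88414 normalised counts in Khk KO and 174213, 120577, 127523 and 90269 in WT, a log2 fold change of -0.53 (SE 0.17, adjusted p = 0.237). Apoa1 had 154208, 125477, 127033 and 136434 in Khk KO and 408134, 168358, 197224 and 157775 in WT, at -0.75 (SE 0.25, adjusted p = 0.237). Khk KO was below WT in every library for Apoa1 and, at low counts, F2, against 23% of the table, and in Apoa4 WT replicate 4 lay inside the Khk KO range. Ttr was at -0.82 (SE 0.35, adjusted p = 0.271) and C2 at -0.58 (SE 0.25, adjusted p = 0.283). F2 and Saa4 were below the filter, and their reads came mostly from WT replicate 1, with 54 counts of F2 against 3 to 8 in the other libraries and 17 of Saa4 against 0 to 5. Listed hepatocyte markers, 3 of 12, also summed highest in that library, 604 normalised counts against 163 to 257 in the other WT libraries and 77.9 to 176 in Khk KO. Most of that sum was Cyp2e1, with 483 there and 50.1 to 151 in the other WT libraries. Ass1 and Asgr1 were not highest there, at 106 against 107 in WT replicate 2, and 14.5 against 17.8 in WT replicate 3.

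In duodenum, 8 of the plasma protein genes were listed and 5 tested, and the refit called 0, against 0.0638% of the table lower and 0% higher. Of the 5, 2 had an unadjusted p under 0.05, limma-voom called 0, and DESeq2 and the authors' deposited table each called Serpina3f higher, where the authors' table called 0.957% lower and 1.28% higher. Serpina3f, of the Serpina3 cluster, had 101, 170, 86.1 and 103 normalised counts in Khk KO and 38.1, 52.5, 51.9 and 48.1 in WT. Khk KO was above WT in every library, as in 20% of the table, with a log2 fold change of 1.40 (SE 0.27, adjusted p = 0.797), and 1.28 in the authors' deposited table (adjusted p = 0.00327). Apoa1 had 120351, 181752, 168433 and 154796 in Khk KO and 482625, 212188, 249121 and 167385 in WT, which overlapped, at -0.64 (SE 0.25, adjusted p = 1). TMM scaling gave fold changes 0.15 higher on the log2 scale than the authors' size factors in duodenum, as a median over its genes.

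WT replicate 1 of duodenum was the highest of the 4 WT libraries in 6 of the 8 genes. C8g had 307 normalised counts there and 62.0 to 74.2 in the other WT libraries, and Serpinf2, the plasmin inhibitor, 373 and 55.1 to 94.1. F7 had 33 reads in WT replicate 1 and 0 to 4 elsewhere, and Saa1 26 and 0 to 3. Apoc3 had 23872 normalised counts there and 7935 to 12171 in the other WT libraries. Without that library the median log2 fold change of the genes tested went from -0.64 to -0.12. Serpina9 was near 0, with 1 to 5 reads in Khk KO and 0 to 1 in WT.

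Apoa1 was the only plasma protein gene listed in all 4 organs, and its mean was lower in Khk KO in each. Under the 2 length corrections it was called in no organ. Those log2 fold changes were -0.049 and -0.063 for liver, -0.30 and -0.31 for duodenum. They were -0.18 and -0.20 for jejunum, -0.46 and -0.48 for ileum. Leaving out WT replicate 1 moved Apoa1 from -0.64 to -0.35 for duodenum, -0.75 to -0.41 for jejunum and -1.06 to -0.74 for ileum. For liver Apoa1 moved from -0.75 to -0.97. Its WT level was 12327 ± 4105 FPKM in liver (SD, n = 4 here and in each organ), 10941 ± 5535 for duodenum, 11178 ± 5921 for jejunum and 2188 ± 1059 for ileum. Its Khk KO level was 7049 ± 322, 6156 ± 1039, 6471 ± 609 and 1035 ± 187 FPKM in the same order. Each organ's table was scaled separately, so the order of organs is a description, in which liver, duodenum and jejunum lie within each other's spread. Apoa4 was high in jejunum, at 4174 ± 1205 FPKM in WT, and low in liver (50.1 ± 27.8) and ileum (31.3 ± 19.3). Apoc3 was at 2512 ± 434 FPKM in WT liver, 641 ± 347 in duodenum and 20.5 ± 7.85 in ileum. Apob was higher in Khk KO in liver and ileum, both organs whose tables list it. Under the 2 length corrections Apob was called in neither organ, at 0.44 and 0.08 in liver and -0.04 and -0.22 in ileum. Differences of fold change between organs were not tested.

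**Figure D5:**
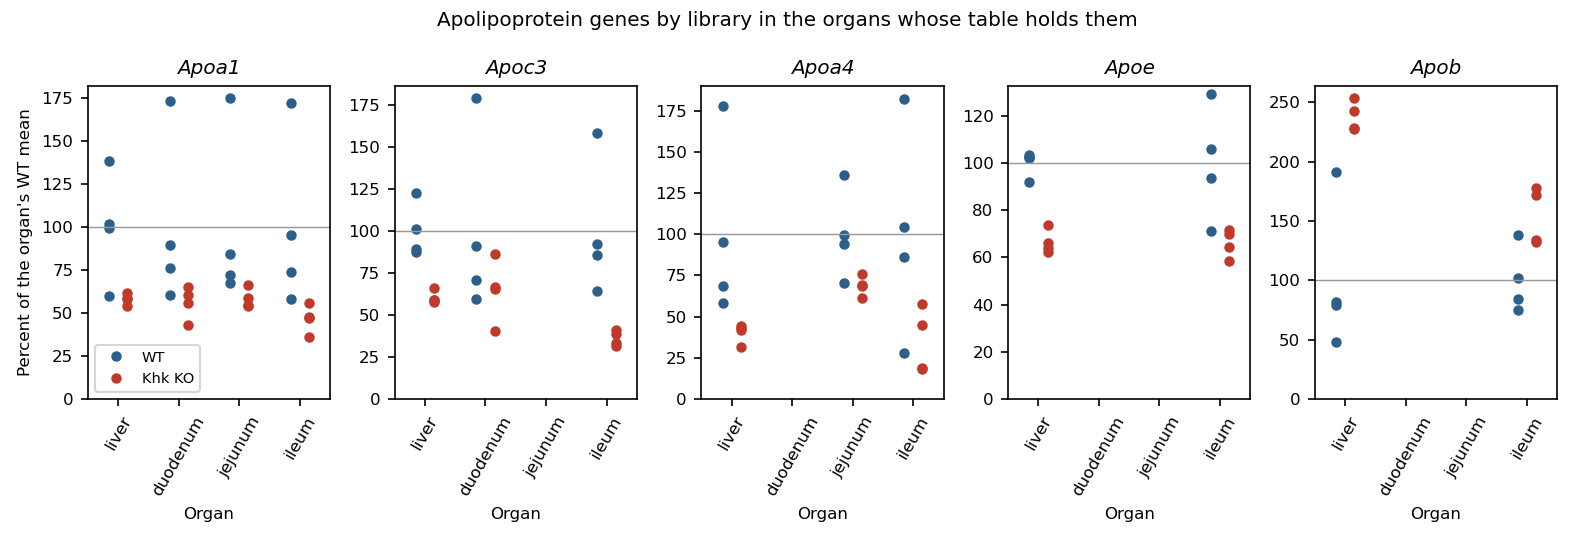
Normalised counts of 5 apolipoprotein genes as a percent of the WT mean of the same organ, by library, in the organs whose table lists the gene, with WT in blue and Khk KO in red. Apoa1 libraries of Khk KO lie below 100% in all 4 organs, and Apob libraries of Khk KO lie above 100% in liver and ileum.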

How the data were processed

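Bulk polyadenylated RNA was sequenced from 4 organs of male mice, with 4 libraries per genotype in each. The submitters' processing notes name HISAT2 2.0.5 and GRCm38 (mm10). The counting tool and the test are not given in the sources used here. The labels name a directional and a non-directional chemistry, so the strand setting is unknown. Per the file headers, the authors deposited for each organ read counts, a normalised signal (the count divided by a size factor per library) and FPKM per library. Per the file headers they also deposited the log2 fold change, p-value and adjusted p-value of Khk KO against WT. Each table lists only genes with an unadjusted p under 0.05. Gene positions equalled GENCODE M21 for 95.41% to 96.31% of genes.

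Values per library are the authors' normalised counts, and levels per length are FPKM. The whole table of each organ was fitted with edgeR 4.0.16 (R 4.3.3): TMM, filterByExpr and the quasi-likelihood F test, starting from library totals implied by the FPKM. p was adjusted by Benjamini-Hochberg over as many genes as the authors' own adjustment implies (18225 for liver, 15615 for duodenum, 9881 for jejunum and 16034 for ileum). SE is the fold change divided by the square root of F. The threshold was 0.05. Genes with a larger p were not in the fit, which affects its estimate of the spread, and its p-values measure the spread between these libraries. The length trend is a lowess curve per library, taken out as an offset with the authors' size factors. DESeq2 1.42.0, limma 3.58.1, other scalings and filters, each library left out, a replicate block and the principal transcript length were tried. The fits were checked on simulated data. Promoters are RefSeq, GRCm38.p6.

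The member genes and gene lists were chosen with earlier results of these data known. In liver, the named genes are, in each role, the 4 with the largest fold change past the threshold in the authors' table and the highest WT FPKM, with Ttr and any gene in at least 2 tables. In the other organs every listed gene is named. Not every liver gene the rule selects is given with values. Same-numbered libraries did not deviate together, with correlations from -0.29 to 0.31, so the numbers were not used as pairs.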

Additional observations from a re-analysis of the deposited data

Results flagged for a closer look

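The check covered the plasma protein genes named by the rule, 35 of the 51 listed in liver and all those listed in the other organs. In 18 of 116 groups of 4 libraries, the highest or lowest normalised count of a gene stood far from the other 3 by Dixon's criterion at 95%. Chance gives about 1 in 20 groups, and groups of different genes share their libraries.

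In liver these were 5 WT values: F7 at 1478, C8a at 15238 and Apoe at 374269 in WT replicate 1, and C8b at 16459 and Serpina10 at 6946 in WT replicate 3. WT replicate 1 was low for F7 and Apoe and high for C8a, each towards the Khk KO level. In Khk KO liver, replicate 3 was high for F2 at 27031, C8g at 4480 and Apoc3 at 19543, and replicate 1 was low for Fgg at 30851.

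In the small intestine, 6 of the 9 values were high ones of WT replicate 1. In duodenum Saa1 was at 26.8, F7 at 34.0, C8g at 307 and Serpinf2 at 373. In jejunum F2 was at 60.3 and Apoa1 at 408134. The other values were Serpina9 at 0.99 in duodenum WT replicate 2, Ttr at 52.0 in jejunum WT replicate 4, where it was low, and Orm2 at 1.04 in ileum WT replicate 4. Serpina9 and Orm2 each rest on 1 read in that library.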

How the results depend on the processing

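In liver, where the refit called 30 genes lower and 2 higher, the lower count was 5 with the length trend out and 6 by principal transcript length. The higher count was 4 with DESeq2, limma-voom and the authors' deposited table, 5 with adjustment over the table alone, and 0 by principal transcript length. The liver median of -0.52 became 0.00035 and -0.041 under the 2 length corrections. With the length trend out, and then by principal transcript length, the sign turned for 17 of the 49 genes tested in both. Of the 34 named by the rule these were Apoo (0.36, 0.40), F7 (0.31, 0.18), Mup14 (0.00035, 0.023), Mup20 (0.087, 0.052), Orm2 (0.28, 0.26), Serpina1b (0.18, 0.16) and Ttr (0.18, 0.14). It turned in the first alone for Orm1 (0.0049), Serpina3k (0.0033) and Serpinf2 (0.072), and in the second alone for Apoc3 (0.067) and C3 (-0.041). The other 10 that turned in both were Apoa2, Apof, Apoh, F12, Serpina1a, Serpina1c, Serpina1d, Serpina1e, Serpind1 and Serpinf1. In ileum it turned for Apob (-0.044, -0.22) and Apoo (0.081, 0.11), and for Itih5 by principal transcript length alone (-0.10). Ileum called 1 lower and 0 higher under either length correction, with medians of -0.33 and -0.34 against -0.60, 1 higher by the authors' size factors, and 7 lower with adjustment over the table alone. Jejunum called 2 lower with adjustment over the table alone, and its median of -0.66 became -0.24 and -0.27. Duodenum called 1 higher with DESeq2 and in the authors' table. The cause of these changes was not tested. The liver share of the genes, 1.07 percentage points lower by FPKM (-1.07), was -2.8 points by read counts. With single libraries left out, liver called 0 to 38 lower and 0 to 5 higher with a median of -0.59 to -0.43 and a share difference of -1.34 to -0.67. Ileum called 1 to 3 lower and 1 to 2 higher, with a median of -0.74 to -0.46, jejunum and duodenum called 0, with medians of -0.78 to -0.43 and -0.79 to -0.12. The replicate block, a fit with the replicate number as a term, called 25 lower and 2 higher in liver, 2 and 1 in ileum, and 0 in duodenum and jejunum, although the same-numbered libraries share only a number. Correlations of same-numbered libraries were -0.12 to 0.096 in liver. Leaving out Alb was not run, since Alb has no row in the tables used here. Counts of only a few reads limit F7, Saa1 and Serpina9 in duodenum, F2 and Saa4 in jejunum, Orm2 in ileum, and Mup4 and Serpina3c in liver.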
